A study of Mus musculus with 3 samples.

Results

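The platelet-derived growth factor (PDGF) genes were examined in endothelial cells of the adult mouse kidney cortex. The members are the 4 ligand genes Pdgfa, Pdgfb, Pdgfc and Pdgfd and the 2 receptor genes Pdgfra and Pdgfrb, chosen by name. They are 6 of the 19938 genes that had a probeset of their own on the array. Each of the 6 had 1 such probeset, which was the one used.

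The 3 samples form 1 group and are called replicates 1, 2 and 3. Each came from 1 kidney of an adult mouse carrying Tg(TIE2GFP)287Sato, in which GFP is driven by the promoter of Tek (Tie2), the angiopoietin receptor of endothelium. The mice were of a mixed background that was mainly CD-1, with no treatment and no mutation named in the labels. The cortex was freed of medulla, digested with 1% collagenase for 5 min, passed through meshes of 100 µm and 40 µm of which the finer held back glomeruli, treated with trypsin for 5 min, and sorted for GFP. The study calls its samples independent, but the labels do not say that the 3 kidneys came from 3 mice, and p-values measure the spread between these samples. GFP marks any cell that uses the Tek promoter.

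PDGF ligands are secreted as dimers, and they bind a pair of receptor tyrosine kinases on neighboring cells. In blood vessels the textbook arrangement is a division of labor: endothelial cells make PDGF-B, and pericytes and smooth muscle cells carry the beta receptor that answers it. In the kidney this signal is needed for mesangial cells and for pericytes to gather on vessels. The alpha receptor is best known from fibroblasts and other mesenchymal cells. PDGF-A and PDGF-B are cut to their active form inside the cell, whereas PDGF-C and PDGF-D are secreted with a CUB domain that must be cleaved off outside it.

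The values are log2 signals from whole-transcript Affymetrix arrays, which the authors had normalized between arrays. With 1 group there was nothing to compare between conditions, so the mean of each probeset was set against a signal of 100 (log2 6.64). The number is that of the study, which kept probesets whose raw level reached 100 in 3 samples. Here the mean of 3 normalized values was tested, so the calls are not the study's own filter. The one-sided moderated test of limma was used in each direction, adjusted by Benjamini-Hochberg across the 35557 probesets of the table, and "above" and "below" mean an adjusted p under 0.05. Signals of different probesets are not on a common scale, since probes differ in how well they bind, so no member was ranked against another. In 51.2% of genes the 3 values were identical to the last of 5 decimals, which leaves no spread and gives a small p even close to the limit. Each mean rests on 3 arrays, and their number limits its precision. All 10 endothelial genes listed were above 100. Tek itself had 10.55, 10.44 and 10.24 and the cadherin gene Cdh5 had 10.62, 10.62 and 10.62 in replicates 1, 2 and 3. These calls do not measure purity. The same test put 5 of 6 proximal tubule, 2 of 3 thick ascending limb and 0 of 4 collecting duct genes above 100. The paper reports a minor contamination of its cortical endothelial cells, with mainly a proximal tubule profile. The PDGF values are therefore those of the whole sort.

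Among the PDGF genes, the ligands Pdgfa, Pdgfb and Pdgfd were above a signal of 100 and the receptor Pdgfra was below it. The ligand Pdgfc and the receptor Pdgfrb were neither, and both were highest in replicate 3. Thus 3 of 6 members were above, in a background where 22.9% of all genes were, and 1 of 6 was below, in a background of 65%. With 6 genes these counts describe the members and are no test of the family.

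**Figure D1:**
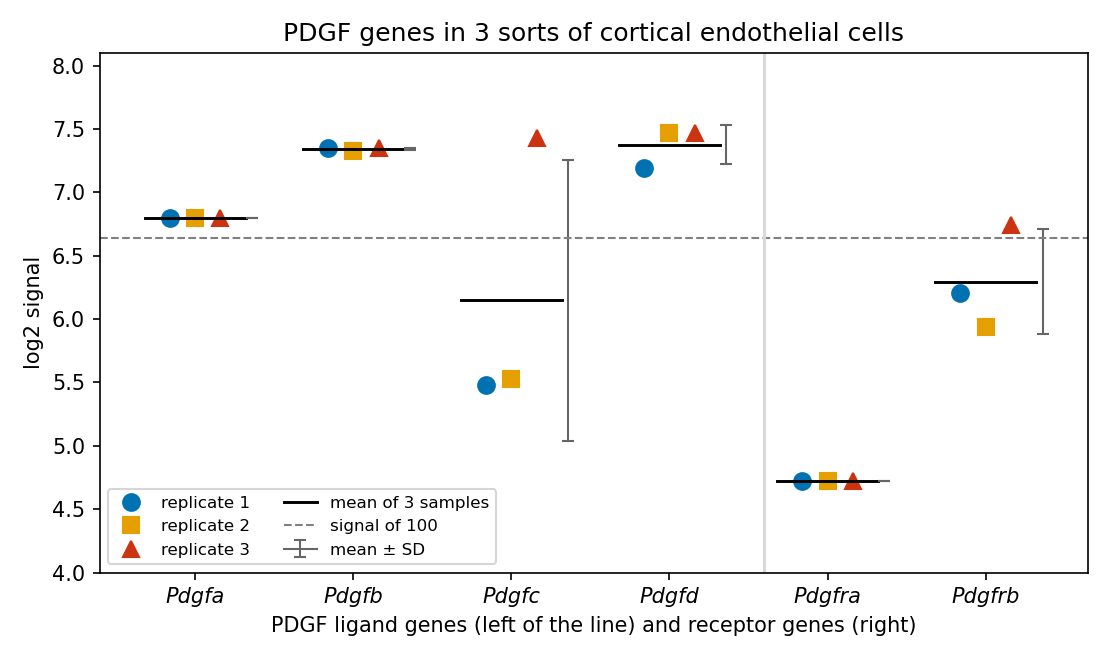
Log2 signal (vertical axis) of the 4 PDGF ligand genes and 2 receptor genes in each of the 3 cortical endothelial samples, with the mean, the SD and a dashed line at a signal of 100. The 3 points of each of Pdgfa, Pdgfb and Pdgfra lie at the same or nearly the same height. Replicate 3 stands apart for Pdgfc (7.43 against 5.48 and 5.53) and is highest for Pdgfrb.

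Pdgfb, the gene of the ligand by which endothelium recruits pericytes, read 7.35, 7.33 and 7.35 on the log2 scale in replicates 1, 2 and 3. These are signals of 163, 161 and 163, so the 3 samples were nearly alike and each lay over the limit. Replicates 1 and 3 held the same value to the last decimal, which narrows the SD and the interval and lowers the p. The mean was 7.34 ± 0.01 (SD, n = 3; 95% interval 7.32 to 7.36), above 100 by 0.70 on the log2 scale (adjusted p = 0.00013 from limma). The range between samples was 0.018, and 46.8% of all genes had a range at least as large. The call was kept with any 1 sample left out, but without replicate 2 it rested on a pair of equal values.

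Pdgfd, the ligand that signals mainly through the beta receptor, had log2 signals of 7.20 in replicate 1 and 7.47 in each of replicates 2 and 3. All 3 samples lay over the limit, with replicate 1 the lowest. The mean was 7.38 ± 0.16 (SD, n = 3; 95% interval 7.06 to 7.70), above 100 by 0.73 on the log2 scale (adjusted p = 0.0229 from limma). The adjusted p was 0.181 without replicate 2 and 0.0949 without replicate 3, so the call was lost in both cases. Without replicate 1 it was kept (adjusted p = 0.000552), on a pair of equal values.

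Pdgfa, the ligand of the alpha receptor, had a log2 signal of 6.80 in every sample, which is a signal of 111. It was above 100 by 0.15 on the log2 scale (adjusted p = 1.05e-05 from limma), and that p comes from 3 equal values. With the typical spread of other probesets at its level in place of its own, the adjusted p of Pdgfa was 0.529. Pdgfa therefore sat at the limit, and its call depended on how equal values were treated.

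Pdgfc, the alpha receptor ligand that needs cleavage outside the cell, differed widely between the sorts. Its log2 signals were 5.48 in replicate 1, 5.53 in replicate 2 and 7.43 in replicate 3, or signals of 44.7, 46.2 and 172. Replicates 1 and 2 were both under the limit and close together, and replicate 3 was over it. The mean of 6.15 ± 1.11 (SD, n = 3; 95% interval 3.87 to 8.43) was neither above nor below 100 (adjusted p = 0.352 for a mean below it from limma). Without replicate 3 the mean was below 100 by limma (adjusted p = 0.0014), at a log2 difference of -1.14 from the limit. The range of 1.95 was matched or exceeded by 140 of the 19938 genes, a share of 0.702%. In replicate 3, 137 genes (0.687%) lay 1 or more log2 units over both other samples, as Pdgfc did with 1.90, and 151 genes (0.757%) lay as far under both.

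The stretch upstream of an annotated start is shown for Pdgfa, Pdgfc and Pdgfd, the 3 ligand genes for which a sequence was at hand. None was at hand for Pdgfb. Of the 3 shown, Pdgfa had equal values, Pdgfc split between the sorts and Pdgfd was above 100 with a spread. Each is the 250 bases before a start annotated by RefSeq on GRCm38.p6, read 5′ to 3′ on the gene's strand. Capitals mark GGGCGG (the GC box of Sp and Klf factors) and TATAAA (the TATA box) on either strand, 2 motifs that do not share letters in these stretches.
Pdgfa (chr5:138994945-138995194, minus strand): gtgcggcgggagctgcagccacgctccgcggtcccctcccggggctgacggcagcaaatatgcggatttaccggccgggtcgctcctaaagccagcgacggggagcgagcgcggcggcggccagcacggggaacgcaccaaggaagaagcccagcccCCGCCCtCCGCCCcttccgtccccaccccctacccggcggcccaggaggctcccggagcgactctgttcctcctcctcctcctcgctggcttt
Pdgfc (chr3:81036166-81036415, plus strand): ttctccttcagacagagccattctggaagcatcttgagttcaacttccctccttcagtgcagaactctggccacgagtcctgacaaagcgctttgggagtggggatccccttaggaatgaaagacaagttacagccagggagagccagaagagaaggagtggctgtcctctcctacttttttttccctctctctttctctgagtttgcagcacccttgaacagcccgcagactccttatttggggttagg
Pdgfd (chr9:6168236-6168485, plus strand): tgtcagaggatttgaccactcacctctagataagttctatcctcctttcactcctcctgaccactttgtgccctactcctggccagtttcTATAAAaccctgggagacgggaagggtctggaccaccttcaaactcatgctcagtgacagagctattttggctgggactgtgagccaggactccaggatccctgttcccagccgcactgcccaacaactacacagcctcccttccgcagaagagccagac

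The Pdgfa stretch was 72.4% G and C, with 28 CG pairs and 2 GC boxes. The other annotated start of Pdgfa had 1 GC box in a stretch that was 66.4% G and C. The Pdgfc stretch was 50.8% G and C with 3 CG pairs and held neither motif. The Pdgfd stretch was 53.6% G and C with 3 CG pairs, and its 1 TATAAA began 160 bases before the annotated start. Over 32851 stretches of the same length the median was 52.4% G and C with 6 CG pairs, 32.7% held GGGCGG and 12.4% held TATAAA. The other motifs searched, GCGNGGGCG (an EGR motif, in 4.70% of the stretches, which can overlap a GC box) and CCGGAA (an ETS motif, in 12.03%), were in none of the stretches of Pdgfa, Pdgfc and Pdgfd. These are matches of letters, and the arrays measured no binding.

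Pdgfra, the receptor gene of fibroblasts, had a log2 signal of 4.72 in every sample, a signal of 26.4. This was below 100 by 1.92 on the log2 scale (adjusted p = 3.54e-10 from limma), and it stayed below when equal values were given the spread of other probesets (adjusted p = 0.000164). The same value stood in all 3 samples for 80 probesets of the table, Pdgfra among them. Of the 8 fibroblast genes listed, 7 were below 100 as well, and the exception was Col1a1, a collagen I gene, at 6.92 in each sample. The collagen gene Col3a1 had 6.001 in each sample and the small proteoglycan gene Dcn had 4.74, 5.32 and 4.74. The summed signal of the 8 genes was between 414 and 427 in the 3 samples. Of the 8, 6 held 3 equal values, so this sum could hardly vary between the sorts.

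Pdgfrb, the receptor gene of pericytes and smooth muscle, read 6.21, 5.94 and 6.75 on the log2 scale in replicates 1, 2 and 3. As signals these are 73.8, 61.3 and 107, so that replicate 3 was the highest and the only sample over the limit. The mean of 6.30 ± 0.41 (SD, n = 3; 95% interval 5.45 to 7.14) was neither above nor below 100 (adjusted p = 0.18 for a mean below it from limma). Without replicate 3 it was below (adjusted p = 0.0434). The range of 0.81 was reached by 6.58% of all genes. In a sort measured in bulk, a smaller number of cells of a type and less RNA per cell cannot be told apart.

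Like Pdgfrb, most pericyte and smooth muscle genes were highest in replicate 3. Of the 12 listed, 9 were highest in replicate 3, 2 had 3 equal values, and Myocd, named after its values were seen, was tied between replicates 2 and 3. Over all genes 15.2% were highest in replicate 3. That share counts the 51.2% with 3 equal values, which cannot be highest in any sample, so it is larger among genes that vary. Some of the 9 were highest by little, with a range of 0.035 for Kcnj8 and 0.043 for Cspg4. In replicate 3, 3 of the 12 and 0.687% of all genes lay 1 or more log2 units over both other samples. The smooth muscle myosin gene Myh11 had 7.79, 8.14 and 9.44 in replicates 1, 2 and 3. Acta2, smooth muscle actin, had 8.43, 7.97 and 9.50, Tagln, the gene of the actin-binding protein transgelin, had 6.41, 6.78 and 8.08, and the pericyte gene Rgs5 had 9.65, 9.70 and 10.64. The summed signal of the 12 genes was 2295, 2269 and 4191. Probesets are not on a common scale, so in such sums the genes with high signals weigh most. The median deviation of the 12 genes from their own means was 0.14 in replicate 3.

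By the test against 100, 4 of the 12 were above, among them Rgs5 (10.0 ± 0.56, SD, n = 3; adjusted p = 0.0141 from limma) and Mcam, an adhesion gene that endothelium also expresses. The potassium channel gene Kcnj8 at 6.86 ± 0.02 and Notch3, which was equal in all samples at 6.90, were the other two. Another 5 were below, among them the proteoglycan gene Cspg4 at 5.87 ± 0.03 and the desmin gene Des at 5.80 ± 0.09, and the rest of these were Cnn1, Abcc9 and Myocd. Acta2, Myh11 and Tagln were neither. Notch3 and Abcc9 held 3 equal values each, so not every gene of the list differed between the sorts.

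**Figure D2:**
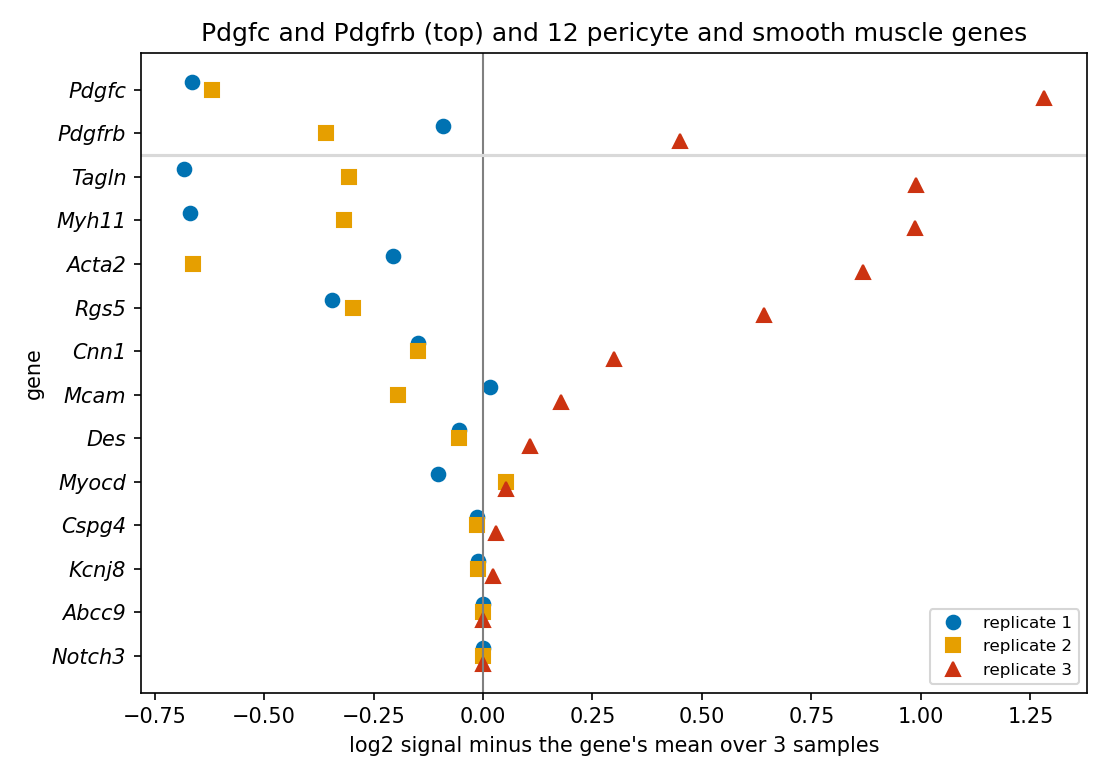
Log2 signal minus the gene's own mean over the 3 samples (horizontal axis) for Pdgfc and Pdgfrb at the top and for 12 pericyte and smooth muscle genes below. Replicate 3 lies to the right for Pdgfc (1.28), Pdgfrb (0.45), Tagln, Myh11, Acta2 and Rgs5, while Notch3 and Abcc9 stay at 0 in each sample.

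Other cell types were checked in the same way beside Pdgfc and Pdgfrb. Of 4 collecting duct genes, 3 were highest in replicate 3, with summed signals of 381, 329 and 572. Hsd11b2, the enzyme that inactivates glucocorticoids in that segment, varied most of the 4, with 6.81, 6.27 and 8.05. Aqp2 had 6.79, 6.79 and 7.01, Aqp3 had 6.37, 6.42 and 6.67, and Scnn1g had 6.23, 5.79 and 6.23. The 6 proximal tubule genes, of which 5 were above 100, summed to 3547, 2683 and 3564, and the 3 genes of the thick ascending limb to 2738, 1664 and 2381. Both sums were lowest in replicate 2, but Cldn16 of the thick ascending limb was lowest in replicate 3, with 8.15, 6.03 and 5.32. The 10 endothelial genes summed to 9952, 10446 and 8254, and 5 of them were lowest in replicate 3, as were 12.7% of all genes. This share, too, counts the genes with 3 equal values and is larger among genes that vary. Kdr, the main VEGF receptor gene, had 9.72, 9.70 and 8.79, the largest drop in replicate 3 among the 10 endothelial genes. The median deviation of the 10 from their own means was only -0.035 in replicate 3. Of the 10, 1 was highest in replicate 3, Tie1, and Erg had 3 equal values. The part of these cell types in the values of Pdgfc and Pdgfrb was not tested.

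Platelets store PDGF, and macrophages also make it, so the genes of both were examined. All 4 measured platelet genes were below 100, with Pf4, platelet factor 4, at 4.50, 4.50 and 4.62 and Ppbp at 4.19 in each sample. All 6 macrophage genes were below, with Cd68 at 5.19 in each. The summed signals were between 164 and 181 for platelets and between 201 and 203 for macrophages. Of the 6 macrophage genes, 5 held 3 equal values, so their sum could hardly vary. Of the 4 measured podocyte genes 3 were below, and the exception, Podxl, is also expressed by endothelium. All 3 mesangial genes measured were below, Itga8, an integrin gene of mesangial cells, at 5.64 ± 0.21 (SD, n = 3; adjusted p = 0.0071 from limma).

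**Figure D3:**
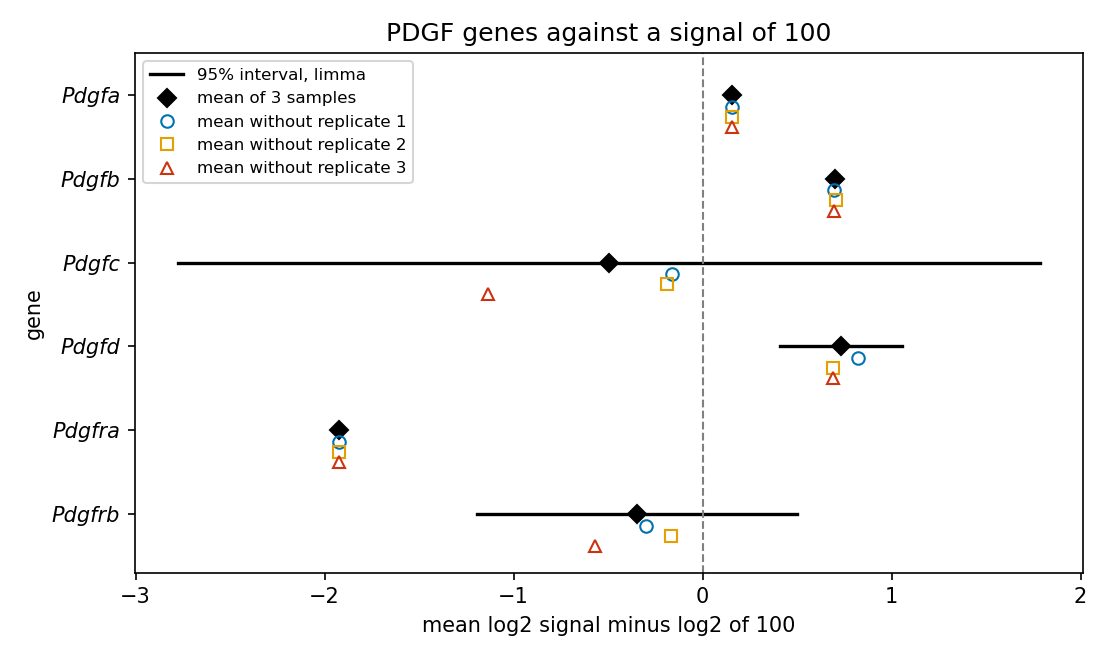
Mean log2 signal minus the log2 of 100 (horizontal axis) for the 6 PDGF genes, with the 95% interval of limma as a line and the means after leaving out each sample as open symbols. Pdgfb and Pdgfd lie to the right and Pdgfra to the left of the limit, and the intervals of Pdgfc and Pdgfrb cross it; the intervals of Pdgfa and Pdgfra are narrow because their 3 values are equal.

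The other genes of the pathway were described from lists of 54 genes, of which 46 had a probeset of their own and 8 were not analysed here. Of the 46, 29 were above a signal of 100, 12 were below and 5 were neither, beside 22.9% above and 65% below over all genes. The median log2 signal was 7.20, against 5.88 over all genes. In 19 of the 46 the 3 values were equal. When these were given the spread of other probesets, 26 were above and 11 below.

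Among the genes that process or hold PDGF ligands, 5 of 7 measured were above 100, 1 was below and 1 was neither. Furin, the convertase that cuts PDGF-A and PDGF-B precursors, had a log2 signal of 6.87 in every sample, close to the limit. Its relative Pcsk7 was neither, at 6.96 ± 0.12 (SD, n = 3; adjusted p = 0.0747 from limma), and Pcsk5 was above with 7.19, 7.19 and 7.499. Plat, the tissue plasminogen activator that cleaves PDGF-C, had 8.30, 8.32 and 8.23 (adjusted p = 0.000459). Plau, the urokinase that cleaves PDGF-D, had 7.42 in each sample. The gene below was St14, the epithelial protease matriptase, which can also cleave PDGF-D, at 5.81 in each. Sparc, a matrix protein that binds PDGF-B, had 12.16, 12.03 and 11.93 and was above (adjusted p = 0.000264).

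Of 11 genes of co-receptors and of receptor attenuation, 6 were above, 3 were below and 2 were neither. Nrp1, neuropilin 1, which binds VEGF and also takes part in PDGF signaling, had 10.33, 10.15 and 9.79, lowest in replicate 3 (adjusted p = 0.00345 from limma). Lrp1, an endocytic receptor that associates with the beta receptor, was below at 6.20 in each sample. Cbl, a ubiquitin ligase of activated receptors, was above at 7.55 ± 0.06 (SD, n = 3), while its relative Cblb was neither at 6.73 ± 0.22. The phosphatase gene Ptpn1 was neither at 6.48 ± 0.25, and Ptpn2 was below at 6.33 ± 0.15 (adjusted p = 0.0407). The third gene below was Sh3kbp1, an adaptor for Cbl, at 6.60 in each sample, within 0.1 log2 units of the limit. Some genes had more than 1 probeset that disagreed: Ptprj, a receptor phosphatase gene, had 7.72 in each sample at the probeset used, and 6.79, 7.28 and 8.84 at its other one, which was neither.

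Of 17 genes whose products bind the activated receptors or pass on their signal at the membrane, 13 were above and 4 were below. Ptpn11, the phosphatase Shp2, had 7.75 and Grb2, the adaptor that brings the Ras activator Sos1, had 6.97 in every sample. Pik3r1, the regulatory subunit of phosphoinositide 3-kinase, varied most on this list together with Rasa1 and Fyn, with 7.999, 8.29 and 8.81, and was above 100 (adjusted p = 0.0285 from limma). The 4 below were Shc1 at 5.95 ± 0.02, Pik3r2 at 5.78 in each sample, the kinase gene Src at 6.15 in each, and the adaptor gene Nck2 at 5.56 ± 0.11 (SD, n = 3). Close relatives of these genes were above: Fyn at 8.56 ± 0.38 and Yes1 at 7.83 for Src, and Nck1 at 8.12 for Nck2. Genes of one kind thus fell on both sides of the limit, but signals of different probesets are not on a common scale.

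Of 7 measured genes of the downstream kinase cascades 5 were above and 2 were neither. Nras, a Ras gene, had 9.36, 9.84 and 9.56 (adjusted p = 0.0036 from limma), and the kinase genes Braf and Pdpk1 had 7.33 and 7.38 in each sample. Akt1 was above at 6.93 ± 0.01. Akt2 was above at 7.38 in each sample at the probeset used, and its other probeset had 6.32, 6.85 and 5.55 and was neither. Map2k1 at 6.77 ± 0.05 and Map2k2 at 6.39 ± 0.29 were neither.

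All 4 relatives of the receptors were below 100. Kit, the stem cell factor receptor, had 5.23 in each sample, Csf1r, the macrophage colony-stimulating factor receptor, had 4.92 in each, and Flt3 had 4.96 ± 0.03. Pdgfrl, which encodes a PDGF receptor-like protein without a kinase, had 5.44, 5.44 and 5.41.

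**Figure D4:**
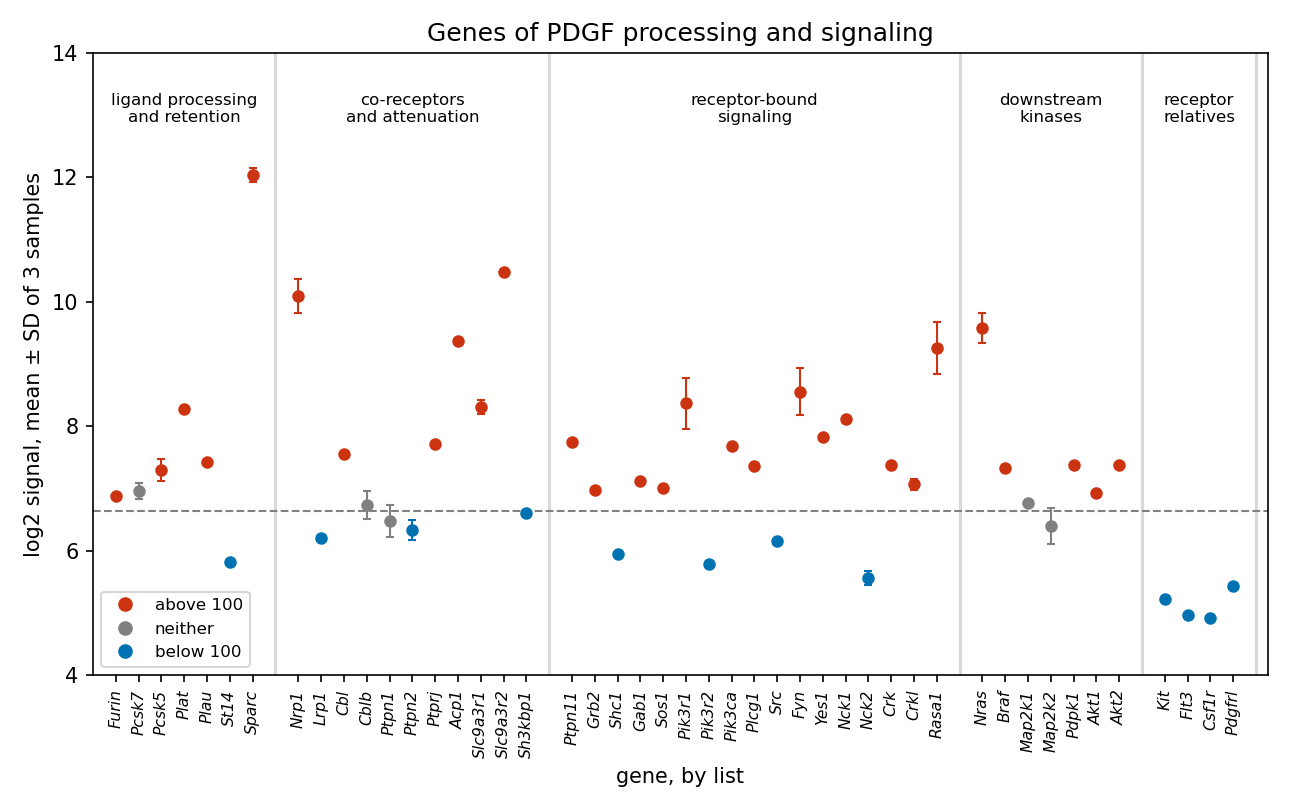
Mean log2 signal with SD over 3 samples (vertical axis) for the 46 measured pathway genes, in their lists and in the order in which they were listed, with a dashed line at a signal of 100. Colors give the call, with 29 genes above, 12 below and 5 neither; heights of different genes are not on a common scale.

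The genes nearest in pattern to each member were sought by the Euclidean distance between the deviations of the 3 samples from the gene's mean, over the 6127 genes whose mean signal reached 100 (6126 where the member is itself one of them). With 3 samples such a pattern has little content, and nothing about function follows from it. For Pdgfc the nearest were Cep350 (distance 0.021), Mtmr9 (0.037) and Snapc5 (0.044), and 4 genes lay within 0.1. Cep350, the gene of a centrosomal protein, had 7.20, 7.28 and 9.16. For Pdgfrb they were Ngdn (0.0074), Acyp2 (0.015) and Bola2 (0.016), with 26 genes within 0.1. For Pdgfd they were Mylk (0.0041), the myosin light chain kinase gene, Olfr314 (0.0044) and Sde2 (0.0051), with 119 within 0.1. For Pdgfb, which hardly varied, they were Anxa1 (0.00044), Pdlim7 (0.00087) and Etfa (0.0022), and 2678 genes lay within 0.1. The number within 0.1 depends on how far the member itself varied, so these numbers were not compared between members.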

How the data were processed

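RNA of 3 sorts of GFP-positive cells, each from 1 kidney, was amplified in 1 round and hybridized to arrays (Affymetrix Mouse Gene 1.0 ST). The authors deposited log2 signals per probeset, 1 column per sample, normalized between arrays. The paper names RMA in GeneSpring GX, and the submitters' processing notes name Affymetrix Expression Console. The set of arrays normalized together is not given in the sources used here. Replicates correlated at 0.941 to 0.950 (Pearson's r over probesets, which are not independent replicates), and the median log2 signal was 5.66 to 5.70. Samples of the study from embryos, medulla, glomeruli and db/db mice were not analysed here.

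Of 35557 probesets, 21789 had 1 gene in the platform annotation, 1621 had several and 12147 had none, and only the first were named. For 21698 the gene ID matched the RefSeq table of GRCm38.p6, which gave current symbols. A gene was taken at its probeset with the highest mean. In R 4.3.3, limma 3.58.1 was run on all probesets with 1 coefficient, the mean distance from the log2 of 100, and a mean-variance trend (2 residual and 0.297 prior degrees of freedom). Both one-sided tests were adjusted by Benjamini-Hochberg at 0.05, and the fit was tested on simulated data. The simulated probesets all had a spread above 0, so that check does not cover genes with 3 equal values. Alternatives changed the limit, the normalization, the moderation, equal values, the filter, the adjustment, the probeset per gene and the samples. Figures and tables were made with Python 3.11.15.

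Named genes are the members, the first 6 genes of each list as written or those that make up a count of 5 or fewer, and the 3 nearest in pattern. Sparc, Ptprj, Rasa1, Fyn, Yes1, Nck1 and the cell type markers given with values were added after their values were seen. The members, lists and tests were chosen with earlier results of these data known.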

Additional observations from a re-analysis of the deposited data

How the results depend on the processing

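The 3 PDGF genes above 100 and the 1 below kept these counts, to within 1.5 times, under most alternatives. A fall from 3 to 2 above still lies within 1.5 times. It occurred when equal values were given the spread of other probesets, where Pdgfa lost its call. The same fall occurred without replicate 2 and without replicate 3, where Pdgfd lost its call. With a limit of 200, 0 members were above and 5 below, and 11 pathway genes were above and 31 below. With a limit of 50, 4 pathway genes were below. When probesets under the median were left out, 0 members and 6 pathway genes were below, because those genes, Pdgfra included, were no longer tested. Against a limit of 200 the log2 difference was -0.85 for Pdgfa, -0.30 for Pdgfb and -0.27 for Pdgfd, and against 50 it was 0.50 for Pdgfc and 0.65 for Pdgfrb, which follows from moving the limit. Leaving out 1 sample gave 2 to 3 members above, 1 to 3 below, 23 to 28 pathway genes above and 12 below; without replicate 3, 3 members were below, since Pdgfc and Pdgfrb joined Pdgfra. With a lone pair of samples the residual degrees of freedom fell to 1. No paired analysis was possible because the samples form 1 group. Quantile normalization and columns shifted to the same median changed no call of a member. Signals near the limit, such as that of Pdgfa, are set by its choice.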
